A study of Mus musculus with 12 samples.

Results

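The cyclic AMP phosphodiesterase genes described here are Pde3a, Pde3b, Pde4a, Pde4b, Pde4c, Pde4d, Pde7a, Pde7b, Pde8a and Pde10a. They were chosen by gene symbol, and all 10 were found among the 27179 rows of the deposited count table. RNA was sequenced from the epididymal fat pad (eWAT) of male C57BL/6J mice fed chow, in 12 samples. The epinephrine group of 6 received sodium epinephrine, the hormone adrenaline, which binds both the alpha and the beta class of adrenergic receptor, at 0.5 mg/kg into the peritoneum. The vehicle group of 6 received the same volume of saline by the same route. Fat was taken 1 h after either injection. The listed ages ran over 18 to 23 weeks in the epinephrine group and over 12 to 17 weeks in the vehicle group, with 1 week between successive samples, so that listed age rises with the replicate number within each group and cannot be fully told apart from group. Whether the listed ages are the true ages cannot be checked here. Since the ages of the groups do not overlap, a fit with age as a covariate extends the trend within groups across the gap between them. Its fold changes rest on that extension, and the trend within groups is equally one with replicate number. The labels call the samples biological replicates, and a library goes by its group and number here.

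Cyclic AMP phosphodiesterases break cyclic AMP down to AMP and so end the signal that beta-adrenergic receptors start through adenylyl cyclase. In fat cells that signal activates protein kinase A, which turns on the breakdown of stored triglyceride. Pde3b is the enzyme through which insulin, acting by way of Akt, lowers cyclic AMP in adipocytes and restrains lipolysis, and the Pde4 enzymes are specific for cyclic AMP and, in their long forms, activated by protein kinase A, which makes them part of a feedback loop. Many of these genes, the Pde4 genes above all, make several proteins from alternative start sites. The counts are per gene, so the separate forms are not resolved here. GENCODE lists 12 protein-coding transcripts with 12 different starts for Pde4d and 9 with 9 starts for Pde4b, against 1 each for Pde3a, Pde3b and Pde8a. The genes lie apart in the genome, on mouse chromosomes 6 (Pde3a), 9 (Pde4a), 4 (Pde4b), 8 (Pde4c), 13 (Pde4d), 3 (Pde7a), 10 (Pde7b) and 17 (Pde10a), with Pde3b and Pde8a both on chromosome 7.

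Because short Pde4 forms from internal start sites are known to be induced by cyclic AMP, the start-site windows of the genes were read for the cyclic AMP response element. RefSeq windows of the GRCm38.p6 build, reaching from 250 bases before to 50 bases after an annotated start, were given for 7 of the 10 genes, with 13 windows in all. None of the 13 held the full element TGACGTCA, which is its own reverse complement and which 1.79% of all 32851 windows held. Its core TGACG, searched on both strands and also contained in the full element, stood in 3 of the 13 windows, or 23.1%, against 20.8% of all windows. Those 3 belonged to Pde4a, Pde4b and Pde8a. The stretch around each core is shown with the core in capitals, CGTCA being TGACG read on the other strand. For Pde4d, the gene that rose, the bases before its one given start are shown, with no part in capitals since neither motif stood there. Only the most upstream start of Pde4d has a window, and a match or its absence describes these letters alone.
Pde4d, chr13:108653927-108654176, plus strand: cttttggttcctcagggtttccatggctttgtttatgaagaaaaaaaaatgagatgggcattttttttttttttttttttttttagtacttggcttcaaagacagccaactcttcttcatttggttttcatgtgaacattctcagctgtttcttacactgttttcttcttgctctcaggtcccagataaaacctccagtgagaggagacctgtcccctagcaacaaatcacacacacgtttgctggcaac
Pde4b, chr4:102421491-102421554, plus strand: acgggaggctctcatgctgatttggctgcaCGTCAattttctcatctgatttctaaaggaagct
Pde4a, chr9:21184021-21184085, plus strand: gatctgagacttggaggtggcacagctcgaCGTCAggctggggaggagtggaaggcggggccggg
Pde8a, chr7:81213151-81213215, plus strand: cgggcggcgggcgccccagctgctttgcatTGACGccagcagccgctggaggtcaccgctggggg

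Between 24821601 and 34405433 reads per library were assigned to genes. All 12 adipocyte markers on the list used here were measured, and Fabp4, a fatty acid carrier of fat cells, averaged 7923 ± 2106 CPM (reads of the gene per 1000000 assigned reads, normalized) with epinephrine and 6968 ± 2255 CPM with vehicle (SD, n = 6 each). Transcripts of the neighbouring epididymis were present in unequal amounts. Gpx5, a secreted enzyme of the epididymal duct, took 1.09% of counts in epinephrine 1, 0.930% in epinephrine 2 and 1.98% in vehicle 2, and less than 0.5% in the other 9 libraries. The mean log2 CPM of the 12 adipocyte markers, called the adipocyte score below, was lowest in the same 3 libraries, at 9.54 in epinephrine 1, 10.27 in epinephrine 2 and 9.24 in vehicle 2, and reached 10.95 among epinephrine and 10.97 among vehicle libraries. In pieces of whole tissue, fewer cells of a type and less RNA per cell cannot be told apart.

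One of the 10 genes, Pde4d, rose after epinephrine, and none fell. Its rise was 1.84-fold, or 0.88 on the log2 scale (SE 0.11, edgeR adjusted p = 0.0006). Over all 16175 genes tested, 2.65% were higher and 3.58% lower at an adjusted p under 0.05, or 6.23% in either direction. Set against that, 1 call among 10 genes describes Pde4d and not the family. The median log2 fold change of the 10 genes was 0.13, against a median of all tested genes of -0.00059. All 10 passed the filter on low counts, with the fewest reads for Pde10a, at 84 in epinephrine 1 and 73 in vehicle 2.

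Levels of different genes are compared below in RPKM (CPM per kilobase of gene length), since the genes differ in length. Pde3b (Entrez gene 18576, chromosome 7, 114415222 to 114537938 of GRCm38.p6) was by far the most abundant of the 10. Its lowest, median and highest levels were 58.5, 114 and 122 RPKM in epinephrine libraries, against 39.9, 95.3 and 136 RPKM in vehicle libraries. The 2 groups overlapped widely, and the lowest library of each was the one richest in Gpx5. The mean was 102 ± 25.2 RPKM with epinephrine and 92.2 ± 33.4 RPKM with vehicle (SD, n = 6 each). The log2 fold change of 0.15 did not pass the test (SE 0.27, edgeR adjusted p = 0.896), nor did the values of 0.016 without vehicle 2 and 0.29 without vehicle 6. Pde3b stood above 95.6% of all tested genes in both groups on this scale.

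**Figure D1:**
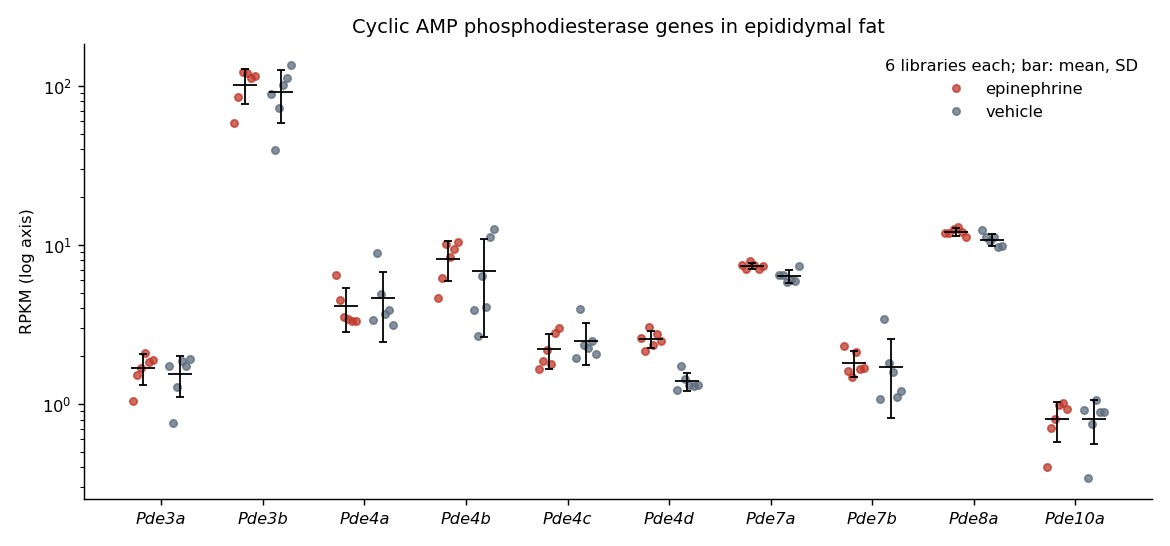
Level of each of the 10 genes in each library, in RPKM on a log axis, with epinephrine libraries in red and vehicle libraries in grey; black bars give the mean and SD of 6 libraries. Pde3b lies far above the rest, and Pde4d is the gene whose epinephrine libraries, from 2.17 RPKM upward, all lie above its vehicle libraries, which reach 1.75 RPKM.

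Of the summed RPKM of the 10 genes in a library, Pde3b made up 70.6% ± 5.34 with epinephrine and 69.7% ± 10.1 with vehicle (SD, n = 6 each). The lowest shares were 60.2% in epinephrine 1 and 50.3% in vehicle 2. Pde8a was second on average, at 8.77% ± 1.92 with epinephrine and 9.05% ± 3.06 with vehicle, but was below Pde4b in vehicle 5 and vehicle 6. In CPM, with no length scaling, Pde8a held 4.73% with epinephrine and 4.95% with vehicle and stood below Pde4b, at 6.84% with epinephrine and 6.07% with vehicle. Per length, Pde4b and Pde7a followed Pde8a. Pde4b held 5.66% ± 0.739 with epinephrine and 5.01% ± 2.05 with vehicle, and Pde7a 5.35% ± 1.23 with epinephrine and 5.23% ± 1.54 with vehicle (SD, n = 6 each). The 9 genes other than Pde3b summed to between 37.6 and 43.5 RPKM with epinephrine and between 33.0 and 40.5 RPKM with vehicle. Shares over the members are described without a test.

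**Figure D2:**
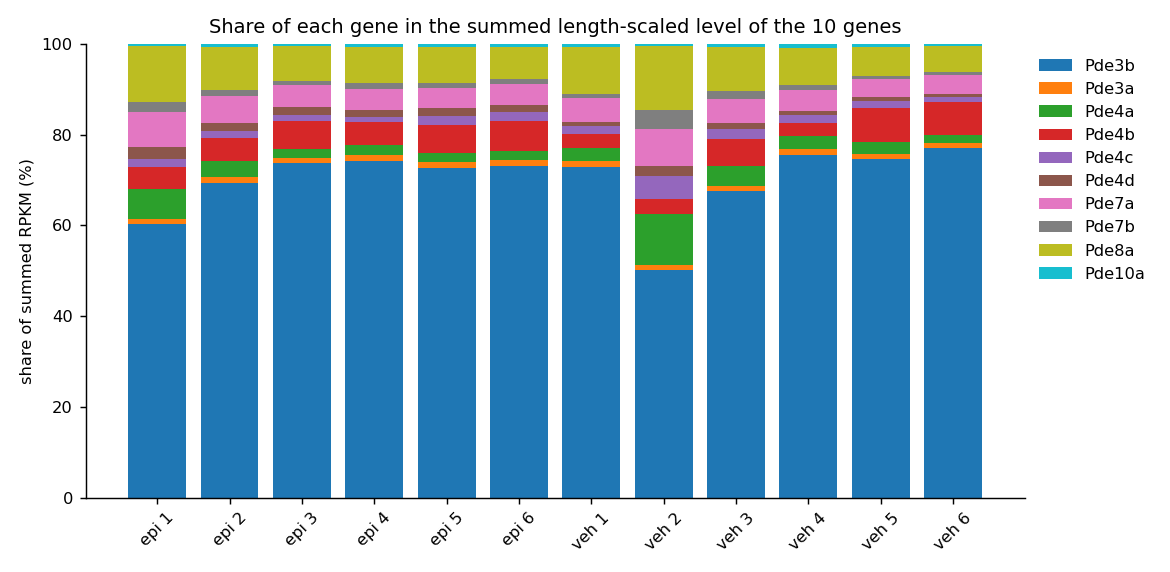
Share of each gene in the summed RPKM of the 10 genes, in percent, with 1 bar per library, epinephrine (epi) on the left and vehicle (veh) on the right. Pde3b fills most of each bar, from 50.3% in vehicle 2 to 77.1% in vehicle 6.

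The order of mean levels with epinephrine was Pde3b, Pde8a, Pde4b, Pde7a, Pde4a, Pde4d, Pde4c, Pde7b, Pde3a and Pde10a. With vehicle it was Pde3b, Pde8a, Pde4b, Pde7a, Pde4a, Pde4c, Pde7b, Pde3a, Pde4d and Pde10a. Pde4d thus stood sixth with epinephrine and ninth with vehicle, but sixth in both groups in CPM, with no length scaling. Neighbours were compared within libraries by an exact two-sided sign-flip permutation test, for which 6 libraries allow no p below 0.0312. With epinephrine, 5 of the 9 neighbouring pairs had the same order in all 6 libraries. They were Pde3b over Pde8a, Pde8a over Pde4b, Pde7a over Pde4a, Pde4a over Pde4d and Pde3a over Pde10a, each at the lowest p the exact permutation allows and an adjusted p of 0.0562 over 9 pairs. With vehicle, 4 pairs did, namely Pde3b over Pde8a, Pde4a over Pde4c, Pde4c over Pde7b and Pde4d over Pde10a (exact permutation, adjusted p = 0.0703). Pde4b and Pde7a did not differ beyond their spread in either group, nor did Pde7b and Pde3a. The other pairs without the same order in all 6 libraries were, with epinephrine, Pde4d over Pde4c and Pde4c over Pde7b. With vehicle they were Pde8a over Pde4b, Pde7a over Pde4a and Pde3a over Pde4d. Pde4b was above Pde8a in vehicle 5 (11.3 against 9.69 RPKM) and vehicle 6 (12.7 against 9.93 RPKM). No neighbouring pair passed the threshold on the adjusted p in either group, so the order given is that of the means.

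Pde3a, which like Pde3b hydrolyses both cyclic AMP and cyclic GMP and is best known from platelets, heart and vascular smooth muscle, was low in fat. Its lowest, median and highest levels were 1.04, 1.76 and 2.11 RPKM with epinephrine and 0.765, 1.74 and 1.92 RPKM with vehicle, and the groups overlapped. Its log2 fold change was 0.12, with an SE of 0.23 (edgeR adjusted p = 0.904). The log2 ratio of Pde3a to Pde3b, which does not depend on the scaling between libraries, was nearly the same in the groups, at -5.91 ± 0.144 with epinephrine and -5.85 ± 0.191 with vehicle (SD, n = 6 each, difference -0.05, SE 0.10, exact two-sided permutation p = 0.567, adjusted p = 0.709 over 10 pairs of genes). An antisense gene shares 5.82% of the exonic bases of Pde3a in GENCODE, another shares 0.620% of those of Pde7a, and the strand setting of the counting is not given in the sources used here.

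Pde4d (Entrez gene 238871, chromosome 13, 108654177 to 109955969 of GRCm38.p6) makes cyclic AMP-specific enzymes known to associate with beta-adrenergic receptors through beta-arrestin. Its lowest, median and highest levels were 2.17, 2.54 and 3.04 RPKM with epinephrine, against 1.23, 1.32 and 1.75 RPKM with vehicle. The lowest epinephrine library was above the highest vehicle library, a separation that 2.04% of tested genes showed in that direction and 2.74% in the other. In CPM the means were 18.1 with epinephrine and 9.81 with vehicle, from 380 to 509 reads per epinephrine library and 237 to 341 reads per vehicle library. The vehicle library with the highest Pde4d was vehicle 2. Without the 3 libraries richest in Gpx5 the log2 fold change was 1.01 (edgeR adjusted p = 0.000166), and with the adipocyte score as a covariate, a fit added after seeing the data, it was 0.90 (edgeR adjusted p = 0.00012). Libraries numbered 1 to 3 in each group gave on their own 0.83 (edgeR adjusted p = 0.388), a fit in which edgeR called no gene of any kind in either direction (1356 genes at an unadjusted p under 0.05), and those numbered 4 to 6 gave 0.95 (edgeR adjusted p = 0.00238). With listed age as a covariate it was 0.94 (edgeR adjusted p = 0.0156).

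Within the Pde4 genes, the share of Pde4d in their summed RPKM was 15.0% ± 1.31 with epinephrine and 9.46% ± 2.17 with vehicle (SD, n = 6 each). The highest vehicle share, 11.8%, lay below the lowest epinephrine share, 12.9%. Pde4b remained the largest of the 4 on average, at 47.4% ± 9.52 with epinephrine and 42.8% ± 18.1 with vehicle. Of the 10 ratios compared, 2 differed between the groups, both with Pde4d as the lower term. The log2 ratio of Pde4c to Pde4d was -0.24 ± 0.337 with epinephrine and 0.82 ± 0.207 with vehicle (SD, n = 6 each, difference -1.05, SE 0.16, exact permutation p = 0.00216, the smallest this test can give, adjusted p = 0.0216). The sign of this ratio depends on the length scaling, since in CPM Pde4c was below Pde4d in 5 of 6 vehicle libraries too, while its difference between the groups does not. The log2 ratio of Pde4a to Pde4d was 0.64 ± 0.452 with epinephrine and 1.65 ± 0.384 with vehicle (SD, n = 6 each, difference -1.004, SE 0.24, exact permutation p = 0.00433, adjusted p = 0.0216). Taken as differences within replicate numbers, both ratios kept their size but had an adjusted p of 0.156 by exact permutation, where 6 pairs allow no unadjusted p below 0.0312. Without the libraries rich in Gpx5 their exact permutation adjusted p was 0.0529 each, where fewer libraries raise the lowest p the test can give.

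The rise of Pde4d was not shown to differ from the change of Pde4b or Pde3b. The ratio of Pde4b to Pde4d differed by -0.44 on the log2 scale (SE 0.44, exact permutation p = 0.346, adjusted p = 0.575), and by -0.73 without vehicle 2 and -0.20 without vehicle 6. The ratio of Pde4d to Pde3b differed by 0.68 (SE 0.36, exact permutation p = 0.0909, adjusted p = 0.303). Without vehicle 2 this second difference was 0.97 (exact permutation, adjusted p = 0.0216).

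**Figure D3:**
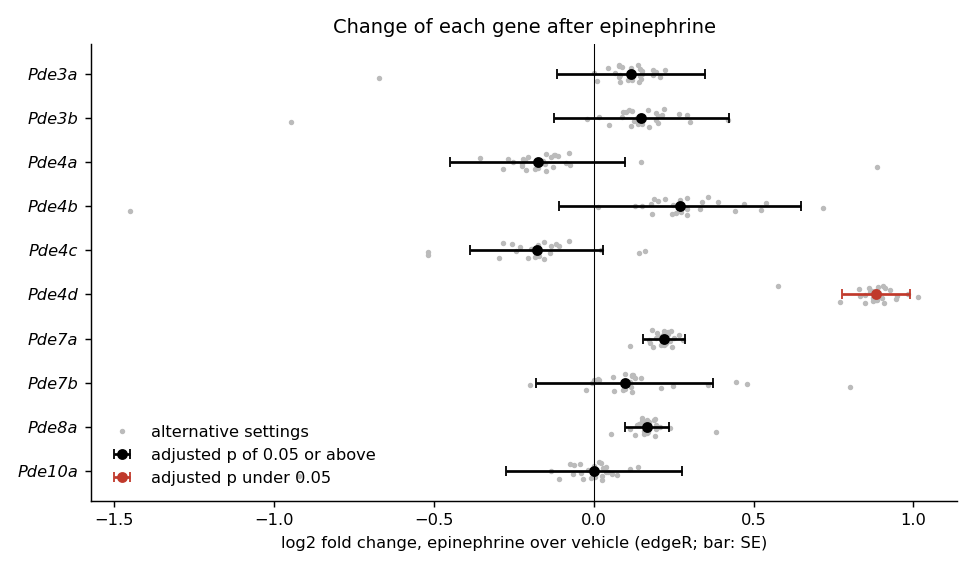
Log2 fold change of each gene, epinephrine over vehicle, from edgeR (large points, with bars of 1 SE) and under 26 alternative settings (small grey points). Pde4d, in red, passed an adjusted p of 0.05, and its alternatives ran from 0.58 to 1.01.

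Pde4b, a cyclic AMP-specific enzyme that is abundant in immune cells and known to be induced in mouse macrophages by bacterial lipopolysaccharide, varied more than any other of the 10 genes among vehicle libraries. Its lowest, median and highest levels were 4.67, 8.94 and 10.4 RPKM with epinephrine and 2.70, 5.21 and 12.7 RPKM with vehicle. The vehicle libraries spread across and beyond the epinephrine range, with vehicle 5 at 11.3 and vehicle 6 at 12.7 RPKM and the other 4 at 6.37 RPKM or below. The coefficient of variation was 28.2% with epinephrine and 61.2% with vehicle. The log2 fold change of 0.27 did not pass (SE 0.38, edgeR adjusted p = 0.846). It was 0.13 without vehicle 2 and 0.54 without vehicle 6, and 0.72 among libraries numbered 1 to 3 against 0.014 among those numbered 4 to 6, none past the threshold. With listed age, which runs with replicate number, as a covariate it turned to -1.45 (edgeR adjusted p = 0.0404). That fit extends the trend within groups to ages the other group lacks. The replicate block, which does not, gave 0.44 (edgeR adjusted p = 0.354).

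Pde4a and Pde4c, the other cyclic AMP-specific Pde4 genes, did not pass the test. Pde4a had its lowest, median and highest levels at 3.31, 3.48 and 6.51 RPKM with epinephrine and 3.13, 3.79 and 8.90 RPKM with vehicle. The top libraries of Pde4a were epinephrine 1 and vehicle 2, those with the most Gpx5 in each group. Pde4a had a log2 fold change of -0.18 (SE 0.27, edgeR adjusted p = 0.868), which without vehicle 2 was 0.15. Pde4c ranged from 1.67 to 3.00 RPKM with epinephrine and from 1.94 to 3.96 RPKM with vehicle, again with vehicle 2 at the top. Its log2 fold change was -0.18, with an SE of 0.21 (edgeR adjusted p = 0.793), and 0.14 without the 3 libraries richest in Gpx5.

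Pde7a and Pde8a, whose enzymes are specific for cyclic AMP and bind it with high affinity, were the steadiest of the 10. Pde7a had its lowest, median and highest levels at 7.04, 7.40 and 7.93 RPKM with epinephrine, against 5.82, 6.23 and 7.40 RPKM with vehicle. Vehicle 6, at 7.40 RPKM, was the one vehicle library within the epinephrine range. The coefficient of variation of Pde7a was 4.33% with epinephrine and 9.16% with vehicle. Its log2 fold change of 0.22 missed the threshold (SE 0.07, edgeR adjusted p = 0.0791), while DESeq2 called it (0.24, DESeq2 adjusted p = 0.00664), as did edgeR without vehicle 6 (0.27, adjusted p = 0.0179) and edgeR with the adipocyte score as a covariate (0.22, adjusted p = 0.0355). Scaled by library size alone, the difference was 0.11 (edgeR adjusted p = 0.362), under a scaling that put the median of all genes at -0.11.

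Pde8a lay at 11.2, 12.0 and 13.1 RPKM (lowest, median, highest) with epinephrine and at 9.69, 10.9 and 12.4 RPKM with vehicle. Its groups overlapped, and the log2 fold change of 0.17 did not pass (SE 0.07, edgeR adjusted p = 0.218). It was 0.054 when scaled by library size alone and 0.38 with listed age as a covariate (edgeR adjusted p = 0.0434). Pde7b, the relative of Pde7a, was lower and more variable, from 1.49 to 2.33 RPKM with epinephrine and from 1.08 to 3.41 RPKM with vehicle, where vehicle 2 was highest. It had a log2 fold change of 0.10 (SE 0.28, edgeR adjusted p = 0.94), and the ratio of Pde7a to Pde7b differed by 0.02 (SE 0.29, exact permutation p = 0.972, adjusted p = 0.972). Pde10a, which hydrolyses both cyclic nucleotides and is best known from the striatum, was the least abundant. It ranged from 0.405 to 1.01 RPKM with epinephrine and from 0.342 to 1.06 RPKM with vehicle, with a log2 fold change of 0.0017 (SE 0.28, edgeR adjusted p = 0.999).

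Across the 12 libraries the genes fell apart by how they followed the adipocyte score. In an edgeR fit with group and score, which was added after seeing the data, 59.2% of all tested genes had a slope on the score at an adjusted p under 0.05, and 6 of the 10 members did, so the number with a slope is near the background. The signs of the slopes divided them. Per unit of score, a doubling of mean adipocyte marker level, Pde3b rose by 0.87 on the log2 scale (edgeR adjusted p = 6.46e-06). Pde10a had a slope of 0.87 as well (edgeR adjusted p = 7.9e-05), Pde3a one of 0.71 (7.27e-05) and Pde4b one of 1.02 (0.00227). Pde4a and Pde7b ran the other way, with slopes of -0.75 (edgeR adjusted p = 3.1e-05) and -0.61 (0.00596). The slopes of Pde4c, Pde4d, Pde7a and Pde8a did not pass the test, at -0.16, -0.13, 0.01 and -0.04.

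**Figure D4:**
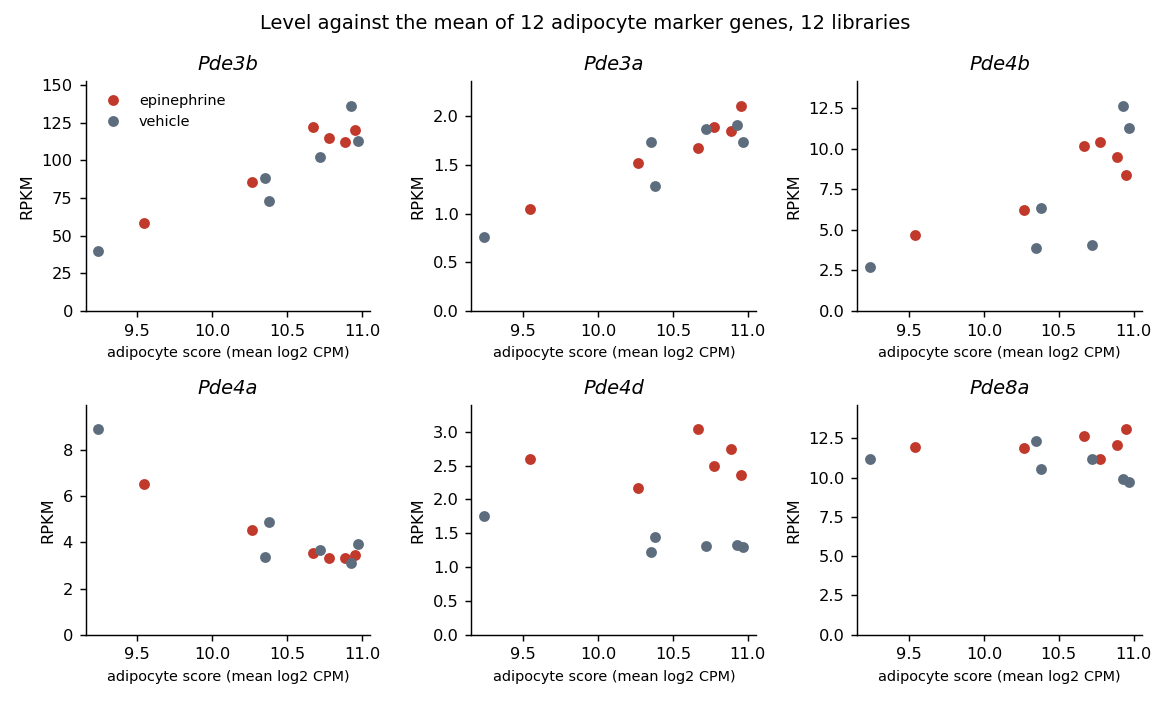
Level of 6 of the genes in RPKM (vertical axis, from 0) against the mean log2 CPM of 12 adipocyte markers (horizontal axis) in 12 libraries, epinephrine in red and vehicle in grey. Pde3b and Pde3a are low in vehicle 2 and epinephrine 1 at the left, Pde4a is high there, and for Pde4d the epinephrine libraries lie above the vehicle libraries at every score.

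The epididymal score, the mean log2 CPM of epididymis and testis genes, gave the reverse signs. Slopes on it passed for 44.7% of all tested genes. Among the members they passed as negative for Pde3a, Pde3b, Pde4b and Pde10a, from -0.15 to -0.09, and as positive for Pde4a (0.10) and Pde7b (0.08). The epididymal score was highest in epinephrine 1, vehicle 2 and epinephrine 2, the libraries of lowest adipocyte score, and which tissue carries each transcript was not tested.

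For each gene, those most like it were sought among 13569 tested genes whose log2 CPM averaged 1 or more, by Pearson's r of group-centred log2 CPM over the 12 libraries, given as a measure of likeness with no test. Pde3b was closest to Pex13, Gbp9 and Trpc1 (r from 0.988 to 0.991). Pde3a was closest to Agtpbp1, Sp3 and the endothelial gene Ptprb, and Pde10a to Timp2, Dipk2a and Fkbp7, with r from 0.982 to 0.984 for both members. Pde4a was closest to Gsk3a, Tcf25 and Araf (0.975 to 0.982). Pde4b was closest to Gm6377, Arid5a and Cd14 (0.975 to 0.990). Cd14, which encodes a lipopolysaccharide co-receptor of myeloid cells, ranged from 55.1 to 133 CPM with epinephrine and from 17.9 to 77.1 CPM with vehicle, where vehicle 5 and vehicle 6 were highest, as they were for Pde4b. The summed macrophage markers of these 2 libraries were 2157 and 2141 CPM, against 2079 CPM in vehicle 4, where Pde4b was at 4.05 RPKM. The sum was lowest in vehicle 2 and epinephrine 1 of their groups, where Pde4b was lowest too, at 2.70 and 4.67 RPKM. Epinephrine 6 had the highest sum and, at 10.4 RPKM, the highest Pde4b of its group. The adipocyte sum was lowest in vehicle 2 and epinephrine 1 as well (13328 and 17338 CPM), as was the endothelial sum (894 and 1047 CPM). The sums of smooth muscle and pericyte, T and NK cell, and epididymis and testis markers were not. Among vehicle libraries the adipocyte sum was also highest in vehicle 5 and vehicle 6 (41997 and 41833 CPM). None of the 14 macrophage markers passed the test between groups, against 6.23% of all tested genes. The macrophage marker sum ran from 946 to 2601 CPM with epinephrine and from 1003 to 2157 CPM with vehicle. What macrophages contribute to the level of Pde4b was not tested.

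The genes nearest to Pde4c were Trmt9b, 2700049A03Rik and Pdxk (r from 0.878 to 0.891), those nearest to Pde7a were Sec24a, Zfyve16 and Cep350 (0.923 to 0.945), those nearest to Pde7b were Hcn4, Acp1 and Ift52 (0.916 to 0.927) and those nearest to Pde8a were Amz2, Doc2a and Tatdn1 (0.857 to 0.896). Pde4d had the weakest likeness within groups, with Fam229b, Dab2 and Ubb-ps at 0.791 to 0.805. Without centring, so that the difference between the groups counted, Pde4d was closest to the chaperone gene Hsp90ab1 (r = 0.972), the co-chaperone gene Bag3 (0.969) and the adaptor gene Bcar1 (0.969). All 3 were themselves higher with epinephrine, with log2 fold changes of 0.70, 1.91 and 0.71. Their direction follows largely from the choice by uncentred likeness to a gene whose groups did not overlap.

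A further 14 genes are named for cyclic nucleotide phosphodiesterases or their subunits, and 8 of them passed the filter on low counts. Of these 8, 0 passed the test in either direction by edgeR (median log2 fold change -0.03), against 6.23% of all tested genes. Pde2a, which is stimulated by cyclic GMP and hydrolyses both nucleotides, was the most abundant of them at 35.9 ± 11.5 RPKM with epinephrine and 36.2 ± 8.89 RPKM with vehicle (SD, n = 6 each). On the same scale it lay below Pde3b and above the other 9 members. The calcium and calmodulin-dependent Pde1a was at 9.41 ± 1.51 RPKM with epinephrine and 9.67 ± 1.88 RPKM with vehicle, and the cyclic GMP-specific Pde5a at 1.29 ± 0.112 RPKM with epinephrine and 1.36 ± 0.118 RPKM with vehicle (SD, n = 6 each). Pde1b, Pde6d, Pde9a and Pde11a had log2 fold changes between -0.09 and 0.26, none past the threshold.

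Among genes that make or restrain cyclic AMP (median log2 fold change 0.15 over the 21 tested), Adra2a, which encodes an adrenergic receptor that lowers cyclic AMP, fell by 1.44 on the log2 scale (SE 0.27, edgeR adjusted p = 0.00788). It averaged 1.23 ± 0.479 CPM with epinephrine and 3.35 ± 0.826 CPM with vehicle (SD, n = 6 each). Gnas, the stimulatory G protein gene, had a log2 fold change of 0.16 and did not pass, nor did Gnai3, Adcy1 and Adcy10. Of 12 tested cyclic AMP effector genes, which include the subunits of protein kinase A, 0 passed by edgeR (median 0.06). Over all tested genes 6.23% passed. Pkig, Rapgef3, Rapgef4, Prkar1a, Prkar1b and Prkar2a, those of smallest p, had log2 fold changes from -0.16 to 0.23.

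Of 21 partners and anchors of phosphodiesterases, 2 were higher and 1 lower (median -0.06), against 2.65% and 3.58% of all tested genes. Akap12, which encodes a scaffold for protein kinase A and beta-adrenergic receptors, rose to 609 ± 195 CPM with epinephrine, against 187 ± 40.5 CPM with vehicle (SD, n = 6 each), by 1.71 on the log2 scale (SE 0.24, adjusted p = 0.00174 in edgeR). Ndel1, whose protein binds Disc1, a partner of Pde4 enzymes, rose 1.66-fold. Akap8, a nuclear anchor for protein kinase A, fell by 0.39 on the log2 scale (SE 0.07, edgeR adjusted p = 0.00579). Akap5, Pik3cg and Pik3r6 had log2 fold changes of -0.60, -0.44 and -0.50 and did not pass.

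Of 16 genes that lead from the insulin receptor to Pde3b, 1 was higher and 0 were lower (median 0.06). Over all tested genes 2.65% were higher and 3.58% lower. Irs2, an insulin receptor substrate, rose to 301 ± 80.9 CPM with epinephrine, against 76.5 ± 17.6 CPM with vehicle (SD, n = 6 each), by 1.98 on the log2 scale (SE 0.21, adjusted p = 0.000345 in edgeR). Irs1, Akt1, Pik3r2, Ptpn1 and the 14-3-3 gene Ywhaz did not pass, and Ywhaz was nearest at 0.40 (edgeR adjusted p = 0.0541). The list of known cyclic AMP and CREB targets was, like the others, chosen with earlier results of these data known. Of its 19 genes, 12 were higher (Irs2 of the insulin list included) and 0 lower (median 1.98), against 2.65% and 3.58% of all tested. Among them Crem, which encodes activators and repressors of the CREB family, was at 55.6 ± 12.3 CPM with epinephrine and 14.8 ± 2.71 CPM with vehicle (SD, n = 6 each), by 1.90 on the log2 scale (SE 0.17, adjusted p = 0.000108 in edgeR). Nr4a1, Nr4a2, Nr4a3 and Atf3 had log2 fold changes from 3.56 to 4.61, against 0.88 for Pde4d.

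Markers of the cell types of fat were counted beside these results, to be set against 2.65% higher and 3.58% lower over all tested genes. None passed among 12 adipocyte, 8 B cell, 6 neutrophil, 12 mesothelial, 21 epididymis and testis, 6 skeletal muscle and 8 Schwann and nerve markers that were tested. Single genes passed elsewhere, namely Cldn5 (higher) of 12 endothelial, F3 (higher) of 14 fibroblast and progenitor, Gzmb (higher) and Ncr1 (lower) of 15 T and NK cell and Tagln (higher) of 12 smooth muscle and pericyte markers. The smooth muscle and pericyte markers summed to between 1158 and 1375 CPM with epinephrine and between 864 and 1207 CPM with vehicle, and their part in the rise of Pde4d was not tested. No marker on these lists was at 0 in all libraries.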

How the data were processed

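RNA was purified with TRIzol and RNeasy columns and sequenced from SMARTER mRNA-Seq libraries, per the labels' protocols. HISAT2, featureCounts, cutadapt, FastQC, DESeq2 and the mm10 build are named in the submitters' processing notes, without versions, and neither the strand setting nor the annotation version is given in the sources used here. The authors deposited raw counts per gene, as whole numbers, with a gene length in bases, and a second table of variance-stabilized (VST) values on a log2 scale for 20185 of the 27179 genes.

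From the counts, genes were filtered (filterByExpr, minimum count 10, minimum total 15), scaled by TMM and tested with edgeR 4.0.16 (robust quasi-likelihood F test) in R 4.3.3, with Benjamini-Hochberg adjustment over 16175 genes and a threshold of 0.05. CPM used TMM-scaled library sizes, RPKM the deposited gene length, and log2 CPM a prior count of 1. The fit was also run on counts simulated gene by gene, without the tissue differences between libraries, and no result here rests on that run. Ratios and level order used exact permutation (scipy 1.17.1). Alternatives used limma 3.58.1 on the VST values, DESeq2 1.42.0, other scalings and filters, covariates, a replicate block and subsets of libraries.

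The genes and lists were chosen with earlier results of these data known. By rule the text names the 10 genes, up to 6 genes of smallest p per pathway list, marker genes past the threshold and the 3 genes most like each member. Pde2a and Pde8b are given outside that rule. The rule also took the most abundant genes of each marker list, of which Fabp4 and Gpx5 are given and the others enter the counts only. One result of the list on cyclic AMP production is not reported here.

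As a check of pairing by the replicate numbers in the titles, deviations from the group mean were correlated across genes within each of the 6 same-numbered pairs. The correlations were 0.262 to 0.799, and 3 of the 12 libraries correlated best with their own number in the other group. Since each correlation was over 0.1, the block was kept as an alternative. A trend with number that both groups share would give the same correlations. Positions and start-site windows are those of RefSeq for GRCm38.p6, which mm10 denotes. Protein sequences were not used here.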

Additional observations from a re-analysis of the deposited data

Results flagged for a closer look

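In 3 of the 20 sets of 6 libraries (10 genes in 2 groups), 1 library stood apart from the rest by Dixon's test at the 95% level, which chance does in about 1 set in 20. All 3 were vehicle 2, the library with the largest share of Gpx5. Pde4a was at 8.90 RPKM there, against 4.90 RPKM in the next highest, vehicle 3. Pde4c was at 3.96 RPKM, against 2.48 RPKM in vehicle 5. Pde7b was at 3.41 RPKM, against 1.80 RPKM in vehicle 3. The log2 fold changes without vehicle 2 were 0.15 for Pde4a, 0.02 for Pde4c and 0.45 for Pde7b, and none passed the test.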

How the results depend on the processing

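Pde4d was called higher in 25 of 26 alternative fits, with log2 fold changes from 0.58 (limma on the VST values, a compressed scale) to 1.01. The exception was the libraries numbered 1 to 3 in each group, where 0 of the 10 genes were called. A second gene was called higher, for 2 in all, with DESeq2 and the adipocyte score covariate (Pde7a) and with the age covariate (Pde8a), and leaving out 1 library gave 1 to 2. The age covariate, whose fit extends the trend within groups to ages the other group lacks, also called 1 gene lower, Pde4b. With the replicate block the log2 fold change of Pde4d was 0.89 (edgeR adjusted p = 0.0105), the differences in Pde4a/Pde4d and Pde4c/Pde4d were -1.004 and -1.05 (exact permutation, no longer past the threshold), and no other call changed. Without the libraries rich in Gpx5 these ratios differed by -1.14 and -0.89, and Pde4a/Pde4c and Pde7a/Pde7b turned to -0.25 and -0.13. Leaving out 1 library gave -0.17 to 0.19 for Pde4a/Pde4c, -0.20 to 0.14 for Pde7a/Pde7b and 0.52 to 0.97 for Pde4d/Pde3b.

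The log2 fold changes that changed sign belonged to genes not called in the full set. With the age covariate they were -0.67 (Pde3a), -0.95 (Pde3b), 0.89 (Pde4a), -1.45 (Pde4b) and -0.92 (Pde10a). With numbers 4 to 6 they were -0.021 (Pde3b) and 0.16 (Pde4c), and with numbers 1 to 3 -0.20 (Pde7b) and -0.039 (Pde10a). Pde4c was at 0.14 without the libraries rich in Gpx5. Scaling by library size gave -0.024 (Pde7b) and -0.11 (Pde10a). Pde10a was at -0.033 with upper quartile scaling, -0.0083 with no filter and -0.065 with the adipocyte score covariate. Leaving out 1 library gave -0.00059 to 0.22 for Pde3a, -0.36 to 0.15 for Pde4a, -0.29 to 0.022 for Pde4c, -0.0047 to 0.45 for Pde7b and -0.13 to 0.14 for Pde10a. The causes were not tested.

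Over all genes, the counts higher and lower were 428 and 579, and ranged from 0 (numbers 1 to 3) to 2339 higher with the age covariate and 1737 lower with the adipocyte score covariate. DESeq2 gave 760 higher and 873 lower, the replicate block 385 and 365, and library-size scaling 360 and 1448. The order of levels was not retested without single libraries, since 5 libraries allow no sign-flip p below 0.0625. Without length scaling, Pde4d stood sixth in both groups. Read counts were lowest for Pde10a, at 84 in epinephrine 1 and 73 in vehicle 2.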
